A study of Mus musculus with 17 samples.

Results

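The machinery that carries proteins into and through the early secretory pathway was examined in 17 single Tomato-positive cells of adult mouse back skin. Members were chosen by a rule on gene names, with earlier results of these data known. They cover signal recognition, the Sec61 channel, signal peptidase, folding enzymes, the COPII and COPI coats, TRAPP tethers, TMED cargo receptors and KDEL receptors. The deposited table has 77 matching rows among its 8446, which give 76 gene symbols of 8431. The cells came from C57BL/6 Prrx1-CreERT;Tomato mice, in which a tamoxifen-inducible Cre driven by Prrx1 turns on a red reporter, and the mice were injected with tamoxifen on 3 days at 2 mg for a 30 g mouse. After elastase and collagenase digestion of the skin, cells were sorted for Tomato and picked singly under a fluorescence microscope for a 3' end library. All 17 cells form 1 group with no animal named for any of them, so they are treated as 1 sample and the results are levels, spreads and correlations over cells, with no p-value. A reporter cell marks Prrx1 activity at the time of tamoxifen, and Prrx1 itself was detected in all 17 cells (mean 5.41, SD 1.31).

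Proteins with a signal sequence are recognised on the ribosome by the signal recognition particle, docked at its receptor and threaded through the Sec61 channel into the endoplasmic reticulum, where signal peptidase trims them and chaperones with disulfide isomerases fold them. COPII vesicles then carry them towards the Golgi, and COPI vesicles return escaped residents, which KDEL receptors recognise. Dermal fibroblasts depend on this route because they secrete collagens, whose rigid trimers are large for a standard COPII vesicle. When unfolded proteins accumulate in the endoplasmic reticulum, the factors ATF6 and XBP1 act through the ER stress response element and the unfolded protein response element in the promoters of genes of this pathway.

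Levels are given on the deposited log scale, taken here to be log2(FPKM + 1), in which FPKM is a fragment count divided by transcript length and library size. No source used here gives the log base or the constant. A gene is called detected at FPKM 1 or more, a deposited value of 1. The sorted values are nearly the same in every cell, so each cell has 4369 rows at FPKM 1 or more, and the mean over all symbols was between 2.63 and 2.64 in each cell. Depth per library is unknown. The cells carried fibroblast transcripts, with 9 or 10 of 10 measured fibroblast markers detected in each cell. Of the other lists, 1 keratinocyte, 1 leukocyte, 1 plasma cell, 2 endothelial, 5 mural, 1 melanocyte and 2 adipocyte markers had rows. The mean level per measured marker ran over cells from 7.05 to 9.78 for the fibroblast list (median 8.86). It ran from 0.127 to 6.19 for the adipocyte list (median 2.22), from 0.195 to 3.45 for the endothelial list (median 2.25) and from 0.0301 to 2.29 for the mural list (median 0.509). The single keratinocyte, leukocyte and melanocyte markers reached 5.63, 4.69 and 6.78 in their highest cells, with medians of 0.172, 0.14 and 0.163. The plasma cell marker Sdc1 was detected in none of the 17 cells. The part of other cell types in the results below was not tested.

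Promoters were searched for both response elements because the unfolded protein response is a known control of this pathway. Of the 76 members 64 matched a RefSeq promoter (GRCm38.p6) that runs from 250 bases before a gene's start to 50 after it. The ER stress response element, searched as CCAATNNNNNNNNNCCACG on both strands, was found in 3 of these 64 members (4.69%), against 37 of all 27025 genes with a promoter (0.137%). The element is known from promoters of genes of this pathway, so these shares are descriptions and not independent support. The 3 are Calr, Canx and Pdia6, all folding genes. Their whole promoters follow, 5′ to 3′ along the gene, with the element in capitals. In Calr it lies on the opposite strand, so that it reads as its reverse complement.
Calr: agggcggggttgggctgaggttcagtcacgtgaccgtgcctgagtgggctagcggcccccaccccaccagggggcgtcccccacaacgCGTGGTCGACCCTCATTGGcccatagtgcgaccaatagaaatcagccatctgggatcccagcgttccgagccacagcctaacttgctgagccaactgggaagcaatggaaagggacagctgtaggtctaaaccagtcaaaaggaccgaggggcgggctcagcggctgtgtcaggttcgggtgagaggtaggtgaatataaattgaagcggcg
Canx: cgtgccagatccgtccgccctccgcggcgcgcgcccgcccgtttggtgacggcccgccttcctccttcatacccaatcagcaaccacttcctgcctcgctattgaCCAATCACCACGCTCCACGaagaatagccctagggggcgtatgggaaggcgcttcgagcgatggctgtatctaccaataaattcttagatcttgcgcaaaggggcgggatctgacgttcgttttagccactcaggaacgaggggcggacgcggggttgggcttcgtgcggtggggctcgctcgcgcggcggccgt
Pdia6: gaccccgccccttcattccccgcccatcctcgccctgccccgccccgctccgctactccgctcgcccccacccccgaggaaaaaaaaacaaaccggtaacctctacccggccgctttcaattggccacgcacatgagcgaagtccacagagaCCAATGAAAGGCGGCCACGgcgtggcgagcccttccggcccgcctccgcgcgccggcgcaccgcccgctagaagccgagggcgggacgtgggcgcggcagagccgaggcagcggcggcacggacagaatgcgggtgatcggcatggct
The Calr promoter is chr8:84846882-84847181 on the minus strand, and its element begins at position -162 from the gene's start. The Canx promoter is chr11:50325624-50325923 on the minus strand, with the element at -145. The Pdia6 promoter is chr12:17266339-17266638 on the plus strand, with the element at -98. In the list of other endoplasmic reticulum chaperone and stress genes, the promoters of Hspa5, Hsp90b1, Dnajc3, Creld2, Syvn1 and Derl3 hold the element too.

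The core of the unfolded protein response element, searched as TGACGTG on both strands, was found in 7 of the 64 members (10.9%), against 601 of 27025 genes (2.22%). None of these 7 members holds the longer element. Here 60 bases around each core are shown, with the core in capitals, because they include both partners of the inner COPII coat, Sec23a and Sec24d.
Sec24d: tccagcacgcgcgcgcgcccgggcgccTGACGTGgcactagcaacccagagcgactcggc
Sec23a: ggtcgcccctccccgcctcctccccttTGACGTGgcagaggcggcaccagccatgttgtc
Sec16b: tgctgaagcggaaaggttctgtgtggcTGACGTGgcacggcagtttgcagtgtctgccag
Copb1: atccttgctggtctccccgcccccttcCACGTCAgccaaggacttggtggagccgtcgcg
Copb2: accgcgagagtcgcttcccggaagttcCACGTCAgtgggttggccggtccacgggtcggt
Kdelr3: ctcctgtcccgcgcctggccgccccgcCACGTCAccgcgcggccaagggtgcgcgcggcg
Srpr: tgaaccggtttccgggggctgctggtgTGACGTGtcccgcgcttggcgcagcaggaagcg
The windows are chr3:123267443-123267502 for Sec24d, chr1:157506725-157506784 for Sec16b, chr9:98563698-98563757 for Copb2, chr15:79516352-79516411 for Kdelr3 and chr9:35211163-35211222 for Srpr, all on the plus strand. They are chr12:59011979-59012038 for Sec23a and chr7:114254675-114254734 for Copb1, on the minus strand. The core begins at -26 from the start in Sec24d and 6 bases after the start in Sec23a. A match describes the letters and is not a binding site shown by these data.

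The members stood well above the typical gene and were found in more cells. The median of their mean levels was 4.55, against 1.89 over all 8431 symbols. Of the 76 members 35 were detected in all 17 cells (46.1%), against a background of 13% of all symbols, and 14 more in 14 to 16 cells. Another 25 were detected in 4 to 13 cells, and Sec22c and Trappc11 in 1 cell each, against 18.8% of all symbols in fewer than 4 cells. Counting any value above a cell's lowest, 59 members (77.6%) were in all cells, against 43.4% of all symbols. At FPKM 5 or more 17 members (22.4%) were, against 7.21%, and at FPKM 10 or more 9 (11.8%), against 5.66%. The gap to other genes was smaller at matched levels. Among genes whose mean lay from 4 up to 6, 54.5% of 22 members and 31.1% of 939 other symbols were in every cell. From 6 up to 8 the shares were 94.1% of 17 members and 89.1% of 516 other symbols. The shares were nearly equal elsewhere. They were 0% of 13 members and 0% of 4407 other symbols from 0 up to 2, and 0% of 17 and 0.774% of 2197 from 2 up to 4. From 8 up to 10 they were 100% of 7 and 99.6% of 231. Each cell held 53 to 67 members, with a median of 60.

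**Figure D1:**
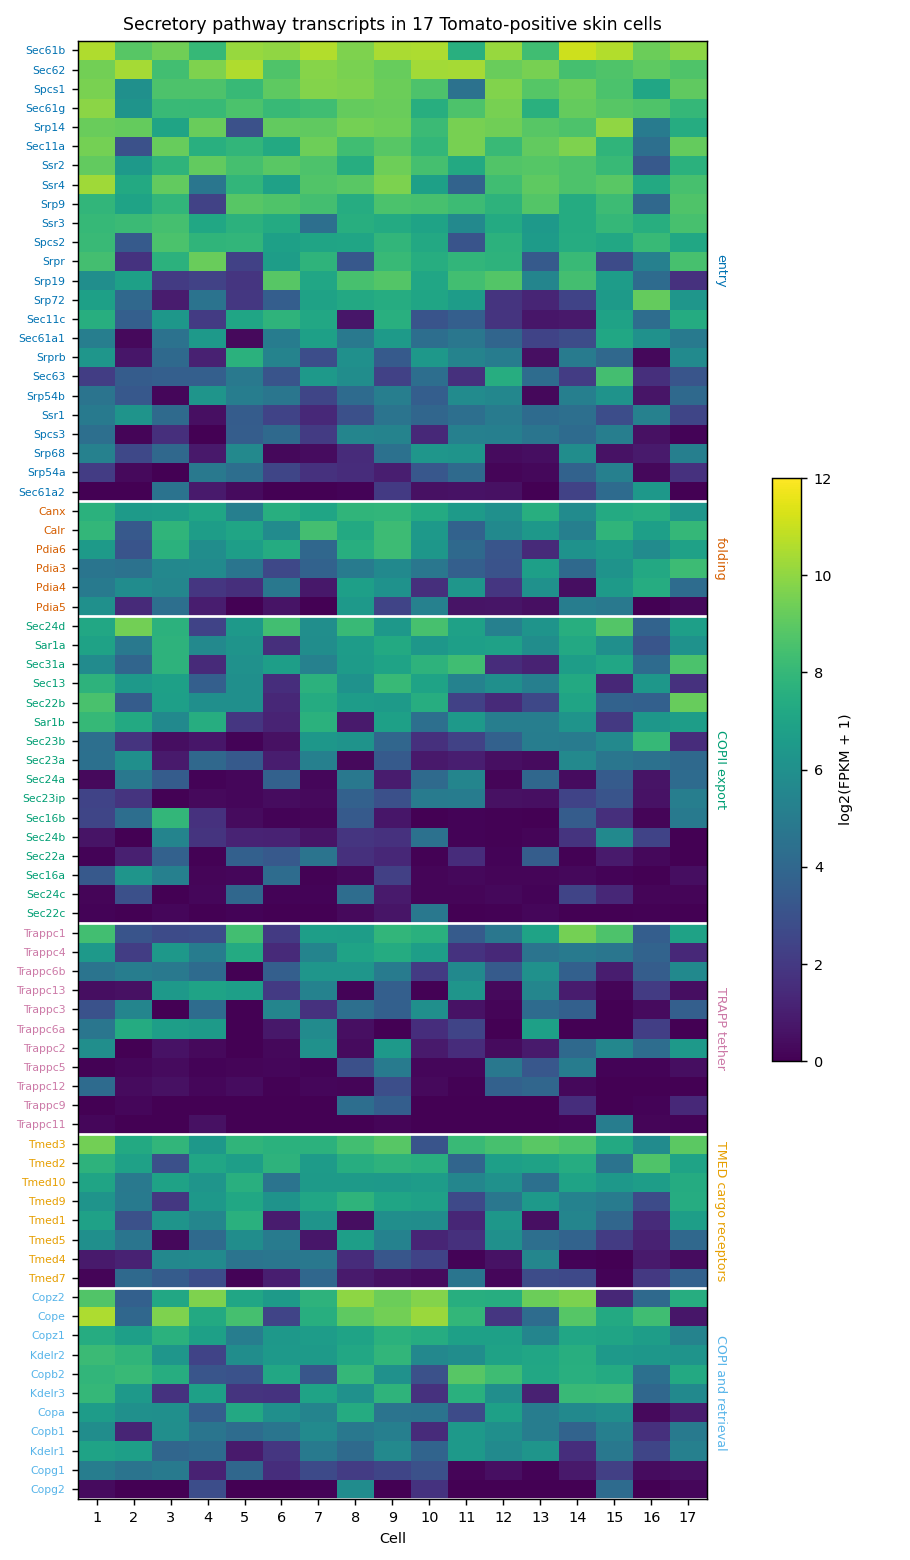
Level of each of the 76 members (rows, grouped by step and sorted by mean within a step) in each of 17 cells (columns), as log2 of FPKM plus 1 on the colour scale. The upper rows of each block are the brightest and its lower rows are dark in many cells. FPKM 1 is reached in all 17 cells by 14 of 24 entry genes and 2 of 11 TRAPP genes, against 13% of all symbols.

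The steps differed in level, from entry at the top to the coat and tether of export at the bottom. The median of member means was 6.16 for 24 entry genes, 5.40 for 6 folding genes, 5.29 for 11 COPI and retrieval genes and 5.01 for 8 TMED receptors. It was 2.69 for 16 COPII genes and 2.68 for 11 TRAPP genes, still above the 1.89 of all symbols. In every cell were 14 of 24 entry genes (58.3%), 4 of 6 folding genes (66.7%) and 6 of 11 COPI and retrieval genes (54.5%). So were 4 of 8 TMED receptors (50%), 5 of 16 COPII genes (31.25%) and 2 of 11 TRAPP genes (18.2%). The share over all symbols was 13%. Gene length went with the level of single members. Across the 76 members, which are not independent replicates, mean level and the log of exonic length had a Pearson correlation of -0.46 and a Spearman of -0.45, against -0.26 and -0.18 over 8424 symbols. The 38 shorter members had a median level of 5.69 with 24 in every cell, and the 38 longer ones 3.17 with 11 in every cell. In a library made from 3' ends the reads per transcript do not scale with length, while FPKM divides by it. Multiplied by exonic length in kilobases, the median was 6.5 for members against 3.18 for all symbols. This length is the union of annotated exons and may differ from the length that FPKM divided by, so the division may not be undone exactly. The median exonic length was 6070 bases in the COPII step against 4197 over all members. It was 4197 in the entry step, 3662 in COPI and retrieval, 3643 in TRAPP, 3143 in TMED and 3010 in folding. Whether length plays a part in the levels or in the order of the steps was not tested.

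**Figure D2:**
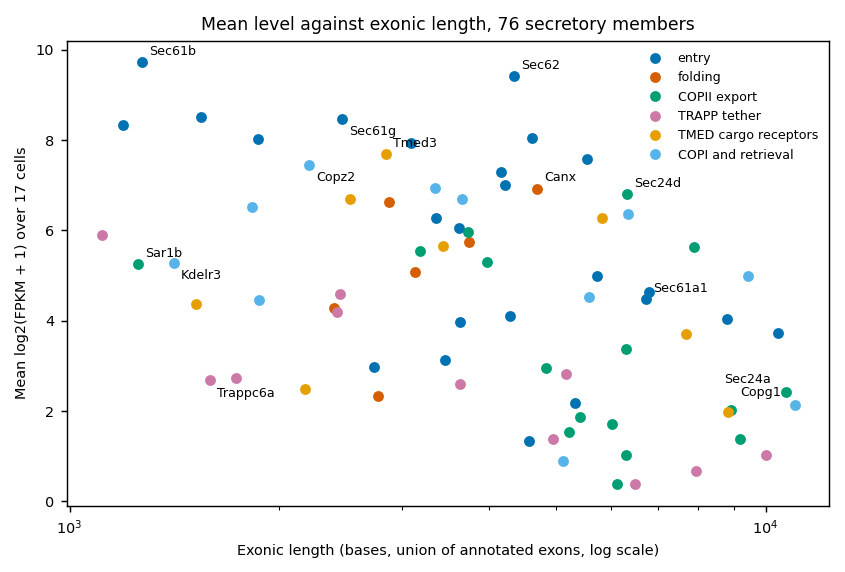
Mean level over 17 cells, as log2 of FPKM plus 1, against exonic length in bases on a log axis, for each of 76 members coloured by step. Short genes such as Sec61b sit high and long ones such as Copg1 low, with a correlation of -0.46, and Sec62 and Sec24d are high for their length.

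Among the entry genes, Sec61b (ENSMUSG00000053317, chr4:47474658-47483242 in GRCm38), a small subunit of the translocation channel, was the highest member of all. Its lowest level was 7.59 in cell 11, its median 10.01 and its highest 11.11 in cell 14 (mean 9.73, SD 1.01), and it held rank 87 among all symbols. Sec62, which assists the channel in post-translational entry, had the smallest SD of all members detected in every cell, with 8.35 in cell 3, a median of 9.45 and 10.56 in cell 5 (mean 9.42, SD 0.71). Both genes were at 7.59 or more in every cell. Spcs1, a subunit of signal peptidase, had 4.51 in cell 11, a median of 8.85 and 9.79 in cell 7. Cells 11 and 2 stood low for it, and cells 2 and 11 were also the lowest for Spcs2 (3.39 and 3.10). The other signal peptidase genes were the catalytic Sec11a (mean 8.05), which ran from 2.95 in cell 2 to 9.66 in cell 14, its paralog Sec11c (4.63, in 14 cells) and Spcs3 (3.12, in 13 cells). Sec11a exceeded Sec11c in 15 cells.

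Sec61g, the other small channel subunit, was similarly steady (mean 8.47, SD 0.88), whereas the large pore subunit Sec61a1 averaged 4.48 (SD 2.04) and was detected in 15 cells. Its paralog Sec61a2 was detected in 5 cells, with a mean of 1.33. Exonic lengths were 1271 bases for Sec61b, 2464 for Sec61g and 6732 for Sec61a1. The signal recognition particle genes ran from Srp14 (mean 8.34) and Srp9 (mean 7.58), which form the pair that pauses translation, through Srp19 (6.06) and Srp72 (4.98), to Srp68 (2.99). Srp68 was detected in 10 of 17 cells (58.8%, exact Clopper-Pearson 95% interval 32.9% to 81.6%, counting error over cells only) and had the largest SD, 2.44, among entry genes found in 4 to 13 cells. Its lowest level was 0.247 in cell 6, its median 2.58 and its highest 6.32 in cell 10. Srp54b (mean 3.96) and Srp54a (mean 2.18) encode the subunit that binds the signal sequence. They are close copies whose reads may be split, and Srp54b stands in 2 rows of the table with means of 3.96 and 3.91, of which the higher was used. The receptor subunit Srpr (mean 6.26, SD 2.54) was detected in all cells but ran from 1.76 in cell 2 to 9.27 in cell 4. Of the translocon-associated proteins, Ssr2, Ssr4 and Ssr3 averaged 8.03, 7.93 and 7.29 and were in every cell, while Ssr1 averaged 3.72 and was in 16. Ssr1 was the highest of its family in no cell. Its exonic length was 10431 bases, against 1864 for Ssr2, 3096 for Ssr4 and 4172 for Ssr3. The part of length in the differences among channel subunits and among these Ssr genes was not tested.

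The folding step was led by the lectin chaperones of the calnexin cycle. Canx had 5.19 in cell 5, a median of 7.06 and 7.90 in cell 9 (mean 6.92, SD 0.78). Calr, its soluble counterpart, had 3.36 in cell 2, a median of 6.79 and 8.40 in cell 7 (mean 6.63, SD 1.49). Calr was low in cells 2 (3.36) and 11 (3.76), and the other cells lay at 5.17 or more. Pdia6, a disulfide isomerase, had 1.44 in cell 13, a median of 6.37 and 8.25 in cell 9 (mean 5.74, SD 1.90). Pdia3, which works with both lectins, averaged 5.07 (SD 1.49) and was in all cells, and Pdia4 averaged 4.29 and was in 15. Pdia5 was the most variable, detected in 8 cells (47.1%, exact interval 22.98% to 72.19%), with 0 in cell 5, a median of 0.982 and 6.45 in cell 8. The prototype isomerase P4hb, also a subunit of collagen prolyl hydroxylase, falls outside the name rule. It averaged 10.22 (SD 0.90), above all 76 members.

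Among COPII genes, Sec24d (ENSMUSG00000039234, chr3:123267455-123365641), 1 of 4 paralogs of the cargo-binding subunit, was the highest. It was above Sec24a, Sec24b and Sec24c in 17 of 17 cells (exact interval 80.5% to 100%, counting error over cells only). It had 2.43 in cell 4, a median of 6.85 and 9.43 in cell 2 (mean 6.81, SD 1.79), against means of 2.41 for Sec24a, 1.72 for Sec24b and 1.03 for Sec24c. The mean difference was 4.4 (SD 1.70) from Sec24a, 5.09 (SD 2.24) from Sec24b and 5.78 (SD 1.86) from Sec24c on the log2 scale. After multiplication by length the differences were 4.56, 6.13 and 7.20, again with Sec24d higher in all 17 cells. Sec24d is known for craniofacial cartilage and collagen secretion in zebrafish. Sec23, the partner of Sec24 in the inner coat, showed no such order. Sec23b (mean 3.38) exceeded Sec23a (mean 2.96) in 9 cells and fell below it in 8, a mean difference of 0.43 with an SD of 2.83. Neither was detected in 2 cells. Sec23b was the most variable of the COPII genes found in 4 to 13 cells, with 0.14 in cell 5, a median of 3.72 and 8.02 in cell 16.

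Both paralogs of the GTPase that starts the coat were detected in at least 16 cells. Sar1a had 1.60 in cell 6, a median of 6.20 and 7.76 in cell 3 (mean 5.95). Sar1b averaged 5.26, with Sar1a higher in 11 cells by a mean over all cells of 0.70 (SD 2.46). After multiplication by length (3740 and 1255 bases) the mean difference was 2.26, with Sar1a higher in 13 cells. The outer coat genes Sec31a (1.16 in cell 13, median 6.61, 8.60 in cell 17) and Sec13 (mean 5.54) were detected in every cell. Sec31a lay at 1.16 to 1.53 in cells 4, 12 and 13. The SNARE gene Sec22b was in all cells (mean 5.31) and above Sec22a in 15 of them. The scaffold genes of exit sites, Sec16b and Sec16a, were detected in 8 and 5 cells, and neither was detected in 7. Sec16b reached 7.96 in cell 3, against its median of 0.711. Sec22c, the other SNARE paralog, was detected in cell 10 only, at 4.78.

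**Figure D3:**
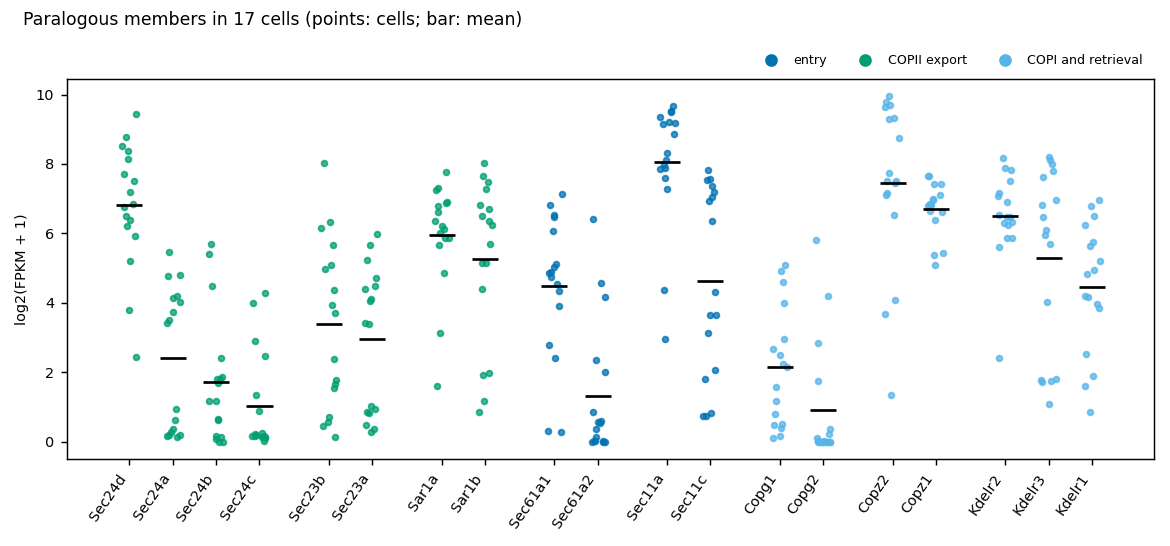
Level in each of 17 cells (points), as log2 of FPKM plus 1, of members that are paralogs of one another, with the mean as a bar. Sec24d, at a mean of 6.81, is higher than Sec24a, Sec24b and Sec24c in every cell, while the Sec23 and Sar1 pairs overlap widely.

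TRAPP, a complex that tethers incoming vesicles and activates Rab1, had the smallest share among the steps of genes detected in every cell. This was 2 of 11 (18.2%), close to the 13% of all symbols. Trappc1, a core subunit, had 2.05 in cell 6, a median of 6.71 and 9.49 in cell 14 (mean 5.89, SD 2.47). Trappc4, also of the core, averaged 4.59 with a range from 1.36 in cell 12 to 7.39 in cell 9. Trappc6b averaged 4.19 and was in 15 cells. Trappc6a was in 9 cells and had the largest SD of the step, 2.93, with 0 in 6 cells, a median of 1.59 and 7.36 in cell 2. Trappc9, Trappc11 and Trappc12, which mark the larger forms of the complex, were detected in 4, 1 and 4 cells, and Trappc13 in 9. The 1 cell with Trappc11 was cell 15, at 5.07. The median exonic length of the TRAPP genes was 3643 bases, against 4197 over all members. Whether the division by length described above plays a part in their levels was not tested.

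Of the TMED receptors, which select cargo such as GPI-anchored proteins, Tmed3 was the highest of its family in 13 cells and Tmed2 in the other 4. Tmed3 had 3.13 in cell 10, a median of 7.88 and 9.44 in cell 1 (mean 7.69, SD 1.51). Tmed2 had 2.94 in cell 3, a median of 6.98 and 8.69 in cell 16 (mean 6.69). Tmed10 was the steadiest, between 4.45 in cell 13 and 7.58 in cell 5 (mean 6.28, SD 0.92). Tmed1 averaged 4.37 and was in 14 cells. Tmed4, detected in 10 cells, had the largest SD among the receptors found in 4 to 13 cells, 2.21, with 0 in cell 15, a median of 1.51 and 5.75 in cell 4.

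Among COPI and retrieval genes, Copz2 had the highest mean and Copz1 the narrowest spread. Copz2 had 1.36 in cell 15, a median of 7.52 and 9.96 in cell 8 (mean 7.45, SD 2.42), and Copz1 had 5.09 in cell 5, a median of 6.81 and 7.65 in cell 9 (mean 6.70, SD 0.76). Both encode the zeta subunit of the coat. Of the other coat genes Copb2 averaged 6.36, Copa 4.99 and Copb1 4.52. Copz2 was higher in 13 cells, but in 10 after multiplication by length, where the mean difference was -0.01. Cope (ENSMUSG00000055681, chr8:70302518-70312993), the epsilon subunit, had the widest spread of all 76 members, with 0.738 in cell 17, a median of 7.95 and 10.50 in cell 1 (mean 6.94, SD 3.07). It was also low in cells 12 (1.91) and 6 (2.44). Copg1 and Copg2, which encode the gamma subunit, averaged 2.14 and 0.902, and neither was detected in 6 cells. Copg2 was found in 4 cells (23.5%, exact interval 6.81% to 49.9%), with 5.82 in cell 8 as its highest level.

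All 3 KDEL receptors were detected in at least 16 cells. Kdelr2 (mean 6.51, SD 1.30) was the highest of the family in 12 cells and Kdelr3 (mean 5.29, SD 2.65) in 5, namely cells 4, 7, 11, 14 and 15. Kdelr1 averaged 4.47 and was the highest in no cell. Kdelr3 lay at 1.09 to 1.80 in cells 3, 5, 6, 10 and 13 and at 4.03 or more in the other cells.

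Cells differed in their mean level of the machinery with an SD of 0.52. The mean over the 76 members was lowest in cell 16, at 3.77, and highest in cell 1, at 5.58, followed by cell 9 at 5.56 (mean over cells 4.61). With the median in place of the mean, and with members detected in all cells only, cell 9 was the highest, and cell 16 stayed the lowest. The lowest and highest cells changed with the step. Entry was lowest in cell 2 (4.55) and highest in cell 9 (6.92), folding lowest in cell 12 (3.42) and highest in cell 8 (6.81), and COPII lowest in cell 12 (1.98) and highest in cell 3 (4.37). TRAPP was lowest in cell 6 (1.45) and highest in cell 9 (4.15), TMED lowest in cell 11 (3.49) and highest in cell 5 (5.95), and COPI and retrieval lowest in cell 16 (3.53) and highest in cell 1 (6.88). Back-transformed, the members made up 0.945% to 2.65% of summed FPKM per cell. The member mean had a correlation of -0.12 (Spearman -0.08) over the 17 cells with the number of symbols at a cell's lowest value, 867 to 1760, a measure of how many genes a library missed; without cell 16 it was -0.04 and without cell 6 -0.21. Cells fall into 3 sets with similar low values, cells 1 to 5, 6 to 14 and 15 to 17, which were defined from the data. Their member means ranged from 4.15 to 5.58, 4.06 to 5.56 and 3.77 to 4.88, and so overlapped.

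**Figure D4:**
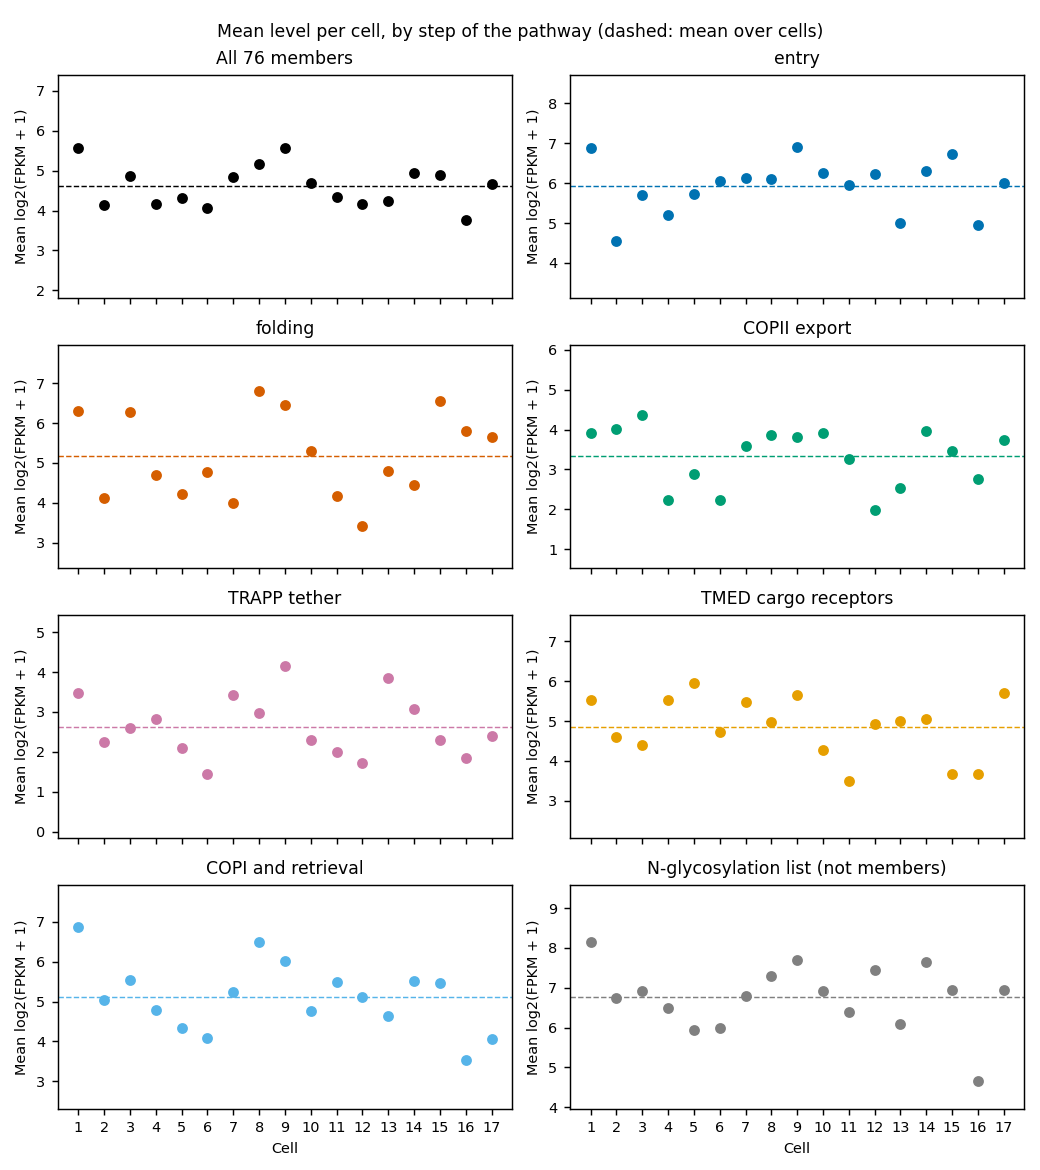
Mean level per cell, as log2 of FPKM plus 1, of all 76 members, of each step and of the N-glycosylation list, for cells 1 to 17, with the mean over cells dashed. Cells 1, 8 and 9 lie above the line in every panel, while other cells change side from step to step.

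Members varied together only weakly. Over 74 members detected in at least 3 cells, the mean of 2701 pairwise Pearson correlations across 17 cells was 0.067 (Spearman 0.076), against -0.0001 over all 7540 symbols that pass the same filter. It was 0.033 with cells 1 and 9, the highest in member mean, left out. A share of 60.0% of member pairs lay above 0 and 4.70% above 0.5, against 49.0% and 2.57% of all pairs. Among genes in every cell the mean was 0.133 for the 35 members and 0.014 for all 1099 symbols. Other basic machinery had means of a similar size, 0.174 for 79 ribosomal protein genes, 0.115 for 20 proteasome genes and 0.10 for 61 respiratory chain genes. Higher means were found for 9 N-glycosylation genes, at 0.27, and 19 genes for collagens and other secreted matrix proteins, at 0.22. The points of each correlation are 17 cells of unknown depth from an unstated number of animals.

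**Figure D5:**
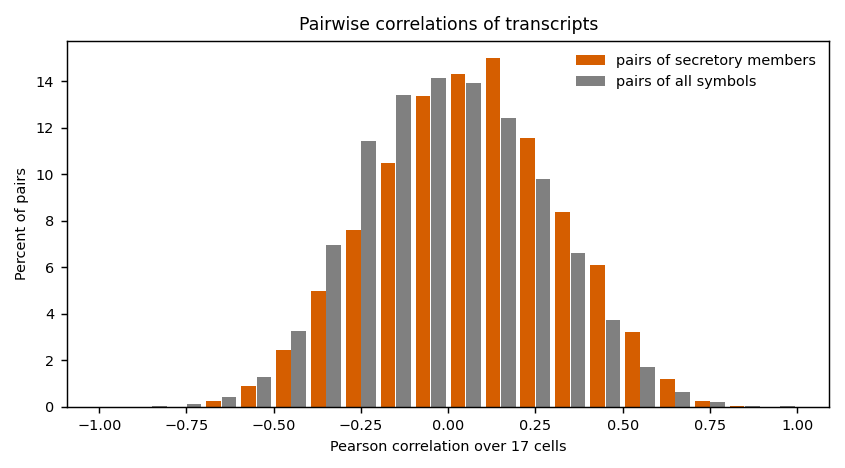
Percent of gene pairs in each bin of Pearson correlation over 17 cells, for 2701 pairs of secretory members (orange) and for pairs of all 7540 symbols (grey). The orange distribution is shifted slightly to the right, with a mean of 0.067, and largely overlaps the grey.

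Correlation within a step was hardly above that between steps, at a mean of 0.096 over 524 pairs and 0.060 over 2177, a difference of 0.037 that was 0.021 without cell 2. Folding had the highest mean within a step, 0.253 over 15 pairs (Spearman 0.271), followed by COPI and retrieval at 0.133, entry at 0.093, TRAPP at 0.082, COPII at 0.081 and TMED at 0.050. Single cells moved some of these, and COPI and retrieval had 0.084 without cell 1, TRAPP 0.038 without cell 9, and TMED 0.023 without cell 15 and 0.082 without cell 3. The 3 pairs among Calr, Canx and Pdia6, the members that hold the stress element printed above, had a mean of 0.343, against 0.259 for the 9 folding pairs with 1 such member and 0.143 for the 3 pairs with none. These ranges overlapped. Canx with Pdia6, both with the element, had 0.18, Pdia3 with Pdia4, neither with it, had 0.39, and the highest folding pair, Canx with Pdia4, has it in Canx alone. Over 29 pairs of known partners, a list chosen after values were seen, the mean was 0.176, and 23 pairs were positive. Srp9 and Srp14, which form a heterodimer, had 0.06 (Spearman -0.22), and -0.13 with set means subtracted. Sec13 and Sec31a, which build the outer coat, had -0.07 (Spearman -0.03), and 0.04 with set means subtracted. Calr and Pdia3 had 0.43 (Spearman 0.45).

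Several of the highest single correlations rested on a pair of cells. For each pair of genes below, the 2 cells left out are those farthest from the median of the first-named gene. Spcs1 and Spcs2, the leading pair of the entry step, had a Pearson correlation of 0.76 but a Spearman of 0.13, and -0.31 without cells 2 and 11. Spcs2 and Calr had 0.77, and 0.22 without those cells. Trappc4 and Cope, the highest pair of all at 0.82 (Spearman 0.82), kept 0.74 without cells 12 and 17. Cell 6, also low in both genes (1.41 and 2.44), was not left out there. Tmed10 and Sec22b had 0.76 and kept 0.67 without cells 6 and 13. Tmed10 and Tmed1 led the TMED step at 0.71 (0.54 without cells 6 and 13), and Sec31a and Sec23ip led COPII at 0.63 (0.59 without cells 4 and 13). The leading pairs of the other steps were Canx and Pdia4 at 0.56 (0.35 without cells 5 and 14), Cope and Copz1 at 0.56 (0.52 without cells 12 and 17) and Trappc5 with Trappc9 at 0.57 (0.33 without cells 9 and 14). These pairs are the highest of many and are given as descriptions.

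Genes of the pathway outside the name rule were compared through lists, to be read against the 13% of all symbols that were in every cell. Of 12 N-glycosylation genes, which act as proteins emerge from the channel, 9 were in every cell (75%), led by Tmem258 (mean 9.66), Krtcap2 (9.31) and Dad1 (9.19). Of 31 measured endoplasmic reticulum chaperone and stress genes 13 were in every cell (41.9%), led by P4hb, the cyclophilin Ppib (9.05) and the chaperone Hspa5 (8.32). Of 27 genes of large cargo export and the intermediate compartment 10 were (37.0%), led by Arf4 (8.74), the collagen chaperone Serpinh1 (8.26) and Ergic3 (8.0). Mia3, whose protein loads collagen at exit sites, averaged 5.48 (SD 2.18) and was in 15 cells. Of 15 measured genes of other entry routes 4 were in every cell (26.7%), led by Btf3 (7.64), Naca (7.0) and Tram1 (5.63).

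Of 6 secretory transcription factors, Atf4 (mean 7.47) and Xbp1 (5.56) were in every cell, Creb3 (5.29) and Creb3l1 (3.50) in 16, Creb3l2 (2.61) in 12 and Atf6 (1.78) in 7. Creb3l2 is known to drive Sec23a in mouse chondrocytes. Here its correlation over 17 cells was -0.24 with Sec23a and -0.30 with Sec24d (Spearman -0.27 and -0.12). The correlation of Xbp1 was 0.65 with the TMED mean (Spearman 0.64), the largest of all those computed for the 6 factors. With the other step means it was 0.34 for entry (0.36), 0.29 for TRAPP (0.30) and 0.11 for COPI and retrieval (0.03). It was -0.10 for folding (-0.03) and -0.17 for COPII (-0.22). Control of the members by Xbp1 was not tested.

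The member mean per cell moved with that of several other lists over the 17 cells. Its Pearson correlation was 0.81 with N-glycosylation genes (Spearman 0.77), 0.66 with large cargo export genes (0.63), 0.65 with chaperone and stress genes (0.65) and 0.54 with other entry routes (0.52). With lists outside secretion it was 0.70 with proteasome genes (Spearman 0.71) and 0.66 with respiratory chain genes (0.65). Without cells 1 and 16 the values were 0.71 for N-glycosylation, 0.59 for large cargo export, 0.88 for chaperone and stress and 0.53 for other entry routes. They were 0.57 for proteasome and 0.55 for respiratory chain genes. Over all 17 cells the correlation of the member mean with ribosomal protein genes was -0.39 (-0.42). It was -0.61 without cell 9 and -0.26 without cell 16. With matrix cargo, 22 genes for collagens and other secreted matrix proteins at a median level of 7.86, it was 0.28 (Spearman 0.22), 0.18 without cell 1, and 0.10 without cells 1 and 16. Col3a1 (mean 11.15), Col1a2 (10.98) and the collagen processing enhancer Pcolce (10.90) led that list. Of the steps, TMED receptors had the highest value with matrix cargo, 0.65 (Spearman 0.57), which stayed between 0.57 and 0.74 when each cell was left out and was 0.64 with set means subtracted. The other steps had 0.03 for entry, 0.04 for folding, 0.17 for COPII, 0.30 for TRAPP and 0.19 for COPI and retrieval. With 1 cell left out they lay between -0.08, for entry without cell 1, and 0.41, for COPI and retrieval without cell 17. The difference between steps was not tested.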

How the data were processed

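The deposited values are log-scale FPKM per gene in 17 cells, taken as log2(FPKM + 1) by assumption. The names TopHat2, Cufflinks and GRCm38 come from the submitters' processing notes, without versions or settings. Log base, constant and normalisation are not given in these sources. Base 2 makes cell 1 sum to 592955 FPKM, base e to 12675767, and base 2 was taken. Sorted values differ between cells by at most 0.0165 above 3, the form that quantile normalisation gives, so depth is unknown and intervals cover counting of cells only. A symbol with several rows kept the one with the highest mean. Of the rows 8438 (99.9%) matched GENCODE M21, the source of coordinates and exonic lengths (union of exons).

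Correlations are Pearson over cells, for genes detected in at least 3 cells, with Spearman beside them. Sets of cells came from average linkage on Spearman correlations over 224 rows under 2.5 in all cells, into 3 sets. In each step the text names the 3 members with the highest mean, the member with the largest SD among those detected in 4 to 13 cells, members in fewer than 4 cells and the leading pair, with the 3 highest genes of other lists. Further genes were chosen after their values were seen. Members and lists were chosen with earlier results of these data known. Alternatives covered the detection threshold, pseudocount (1 or 0.1), length, filters, sets and omission of cells. No member's C-terminal residues were analysed here. Software comprised scipy 1.17.1, pandas 2.3.3, numpy 2.4.6, matplotlib 3.10.9 and Python 3.11.15.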

Additional observations from a re-analysis of the deposited data

How the results depend on the processing

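The number of members in every cell, 35, was 59 for any value above a cell's lowest, 17 at FPKM 5 and 9 at FPKM 10, so breadth of detection rests on the threshold. The median member level, 4.55, was 6.5 after multiplication by length in kilobases and 4.43 to 4.73 with each cell left out. The mean pairwise correlation, 0.067, was 0.133 for members in every cell, 0.033 with cells 1 and 9 left out (chosen after the data were seen) and 0.052 to 0.072 with each cell left out. With each cell left out, the mean within steps was 0.072 to 0.116 for entry, 0.198 to 0.304 for folding, 0.057 to 0.093 for COPII, 0.038 to 0.097 for TRAPP, 0.023 to 0.082 for TMED and 0.084 to 0.160 for COPI and retrieval, and within minus between steps was 0.021 to 0.048. The correlation of member means was 0.18 to 0.38 with matrix cargo, 0.55 to 0.81 with chaperone and stress genes (lowest without cell 9, and 0.88 without cells 1 and 16, chosen after the data were seen) and -0.21 to -0.04 with genes at the lowest value. Of 24 named members, the mean of 8 moved by an SD or more over cells after multiplication by length and of 1 with a pseudocount of 0.1. No paired analysis was possible because all cells form 1 group. With depth unknown, a value of 0 sets no detection limit.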
